A study of Homo sapiens with 4 samples.

Results

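The fibroblast growth factor (FGF) axis was followed here through 10 genes, the ligands FGF1, FGF2, FGF8, FGF9, FGF18 and FGF19 and the receptors FGFR1, FGFR2, FGFR3 and FGFR4, out of 17721 genes that could be named on the array. Members were the non-control spots whose RefSeq accession belongs to one of these symbols, which gave 17 probes on 26 spots. RNA was from OVSAYO, a human ovarian clear cell carcinoma (CCC) cell line, and was hybridised to 4 single-colour whole human genome arrays on 1 slide, 1 array per condition. NS-si cells had received a Silencer negative control siRNA and Sp1-si cells a SMRT pool of siRNAs against the transcription factor Sp1, both with lipofectamine in RPMI1640. They are called control and silenced cells below. According to GEO's labels the medium was replaced after 40 h (a legend of the study gives a shorter time), and NS-si → CoCl2 and Sp1-si → CoCl2 cells were given 0.5 mM CoCl2 for 4 h, a hypoxia-mimicking agent that stabilises hypoxia-inducible factors (HIFs), while NS-si and Sp1-si cells were not. All values thus come from 1 cell line and 1 siRNA pool, and the comparisons ask which genes respond to CoCl2 and whether silencing of Sp1 alters their level.

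There were no replicate arrays, so no difference below was tested and no p-value is given. The error given is the SD, over the 10 spots of a probe, of the log2 ratio between arrays taken spot by spot. For FGF2 the log2 levels on each single array had larger SDs, 0.064 to 0.0742. The error of the ratios, called SD between spots below, leaves out shifts that a spot shares on the arrays compared. It comes from the probe's own 10 spots (FGF2) or, for probes with 1 spot, is the median SD of the 50 10-spot probes closest in signal, and it leaves out the spread between cultures, RNA extractions and hybridisations, so the arrays' number limits the precision. Signals are given as scaled signal, the scanner's processed intensity with the 75th percentile of each array set to 1000, and a difference between 2 arrays was counted as a call when its log2 ratio was at least 1 in size. Leaving the arrays unscaled moved the median log2 ratio of all probes by -0.225 (CoCl2 in NS-si cells), 0.22 (CoCl2 in Sp1-si cells), -0.05 (Sp1-si to NS-si without CoCl2) and 0.40 (with CoCl2), so the sign of smaller ratios can depend on the scaling.

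FGFs are secreted signalling proteins that bind receptor tyrosine kinases on the cell surface. Most act locally and need heparan sulphate chains to engage their receptor, whereas FGF19 belongs to an endocrine group that needs a Klotho protein instead. Bound receptors phosphorylate the adaptor FRS2 and phospholipase C gamma and feed the RAS-ERK cascade, whose target genes include inhibitors of the same route, such as the Sprouty proteins and the DUSP phosphatases. In epithelial tumours the ligands can come from the tumour cells themselves or from the stroma.

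The siRNA and the labelled cell type were checked first. The 10-spot probe of SP1 had processed intensities of 553 without and 429 with CoCl2 in control cells and 39.2 without and 38.7 with CoCl2 in silenced cells, which is a log2 ratio of -3.77 without and -3.87 with CoCl2. On the 4 arrays 75.6% to 79.1% of probes were well above background. All 6 epithelial markers and the CCC markers PAX8 and NAPSA were well above background on every array. PTPRC (leukocytes), PECAM1 and CDH5 (endothelium), and COL3A1 and PDGFRB (fibroblasts) were on none, while CD3E, CD68, CD14, VWF and LUM were on all. The summed intensity of the 4 leukocyte markers ranged from 611 in Sp1-si to 1190 in NS-si → CoCl2 cells, and that of the 3 fibroblast markers on the array from 354 in Sp1-si to 773 in NS-si cells. Their part in the values below was not tested.

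Promoter sequence, from 250 bases upstream to the start of the transcript, was found in the RefSeq table (GRCh38.p14) for 6 of the 10 genes, in 14 windows. The windows of FGF2, FGF18 and FGFR3, whose levels differed most among these, and the first window of FGFR4, which differed less, are shown because Sp1 binds the GC box and HIFs bind the core of the hypoxia response element (HRE). Capitals mark GGGCGG on either strand (GC box, CCGCCC when reversed) and ACGTG or GCGTG on either strand (HRE core, CACGT or CACGC when reversed). No GC box shares a base with an HRE core in these windows.
FGF2, chr4:122826581-122826830, plus strand: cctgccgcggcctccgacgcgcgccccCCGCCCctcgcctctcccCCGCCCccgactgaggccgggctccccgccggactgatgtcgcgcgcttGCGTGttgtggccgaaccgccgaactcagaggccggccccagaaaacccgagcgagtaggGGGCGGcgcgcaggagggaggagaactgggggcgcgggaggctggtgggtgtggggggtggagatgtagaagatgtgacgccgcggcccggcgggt
FGF18, chr5:171419397-171419646, plus strand: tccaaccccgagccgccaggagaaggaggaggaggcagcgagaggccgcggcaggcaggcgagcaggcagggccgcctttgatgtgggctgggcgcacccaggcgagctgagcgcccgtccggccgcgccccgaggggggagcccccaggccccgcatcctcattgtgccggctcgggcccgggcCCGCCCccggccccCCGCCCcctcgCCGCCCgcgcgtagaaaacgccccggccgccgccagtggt
FGFR3, chr4:1793043-1793292, plus strand: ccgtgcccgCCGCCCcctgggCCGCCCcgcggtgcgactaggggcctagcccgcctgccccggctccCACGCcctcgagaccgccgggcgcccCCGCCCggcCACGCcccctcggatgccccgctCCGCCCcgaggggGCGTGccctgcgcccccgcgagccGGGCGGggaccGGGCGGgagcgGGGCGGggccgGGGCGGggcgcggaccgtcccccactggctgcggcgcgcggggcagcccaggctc
FGFR4, chr5:177086665-177086914, plus strand: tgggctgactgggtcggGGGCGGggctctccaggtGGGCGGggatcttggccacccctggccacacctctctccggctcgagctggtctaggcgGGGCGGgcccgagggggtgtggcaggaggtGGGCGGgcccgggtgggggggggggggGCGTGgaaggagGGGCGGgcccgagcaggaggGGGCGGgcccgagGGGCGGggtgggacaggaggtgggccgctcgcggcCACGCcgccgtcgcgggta

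These windows held 3 GC boxes and 1 HRE core for FGF2, 3 and 0 for FGF18, 8 and 3 for FGFR3, and 7 and 2 for FGFR4. Of all 35116 promoter windows of this length, 42.6% had at least 1 GC box, 13.9% at least 3, 1.12% at least 7 and 0.584% at least 8, while 43.2% had at least 1 HRE core and 7.76% at least 3. Of the 5 windows of FGFR2, 1 held 3 GC boxes and the others 0 or 1, the 4 windows of FGF1 held 0 or 1, and the second window of FGFR4 held 0. A match gives letters only and does not show that a factor binds there.

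Of the 17 probes, 10 were well above background on all 4 arrays. They covered 7 genes, namely the ligands FGF2, FGF9 and FGF18 and all 4 receptors. A further 2 probes (FGF8 and 1 of FGF1) passed this limit on the NS-si → CoCl2 array only, and 5 probes (the other 2 of FGF1, both of FGF19 and 1 of FGFR2) on none. No member spot was an outlier or saturated. Ordering the 4 conditions by level for each of the 10 probes gave 30 pairs of neighbouring levels, of which 22 differed by more than 2 SD between spots and 8 did not.

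**Figure D1:**
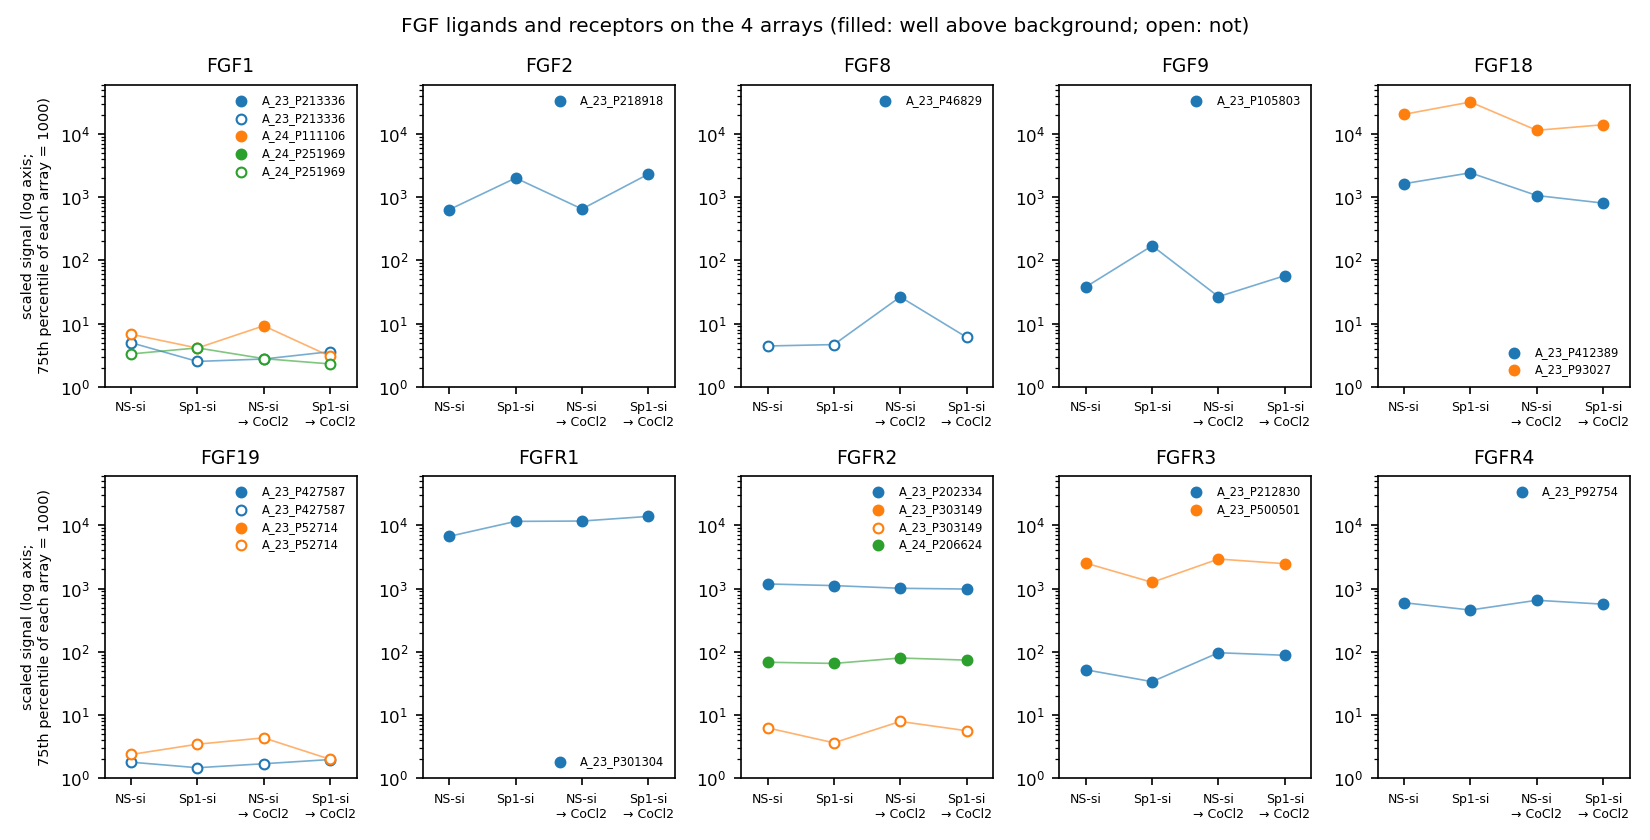
Scaled signal (log axis, 75th percentile of each array set to 1000) of every FGF and FGFR probe on the 4 arrays, 1 panel per gene and 1 colour per probe, with filled points well above background and open points not. FGF2 stands at 632 and 647 in the NS-si conditions and at 1997 and 2301 in the Sp1-si conditions, whereas FGF1 and FGF19 stay near the bottom of the axis. Lines join the values of 1 probe and carry no order in time.

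FGF2, the basic fibroblast growth factor, which leaves cells without a signal peptide and acts on several FGF receptors, had levels within 2 SD between spots with and without CoCl2 in control cells and a level more than 3 times as high after silencing of Sp1. Its scaled signal was 632 without and 647 with CoCl2 in control cells and 1997 without and 2301 with CoCl2 in silenced cells. The 10 spots ran from 575 to 666 and from 583 to 694 in control cells and from 1816 to 2139.5 and from 2058 to 2451 in silenced cells, in the same order. Both Sp1-si arrays were therefore above both NS-si arrays at every spot, and the 2 NS-si arrays overlapped. The log2 ratio of silenced to control cells was 1.66 (SD 0.0367, 10 spots) without CoCl2, or 3.16-fold, and 1.83 (SD 0.0202, 10 spots) with CoCl2, or 3.56-fold. Both stayed between 1.56 and 2.23 under every other scaling and background correction tried. Among all probes measured, 1.33% had a ratio at least as high without and 1.15% with CoCl2. The CoCl2 ratio was 0.03 (SD 0.0418) in control cells, turning to -0.19 without scaling of the arrays, and 0.205 (SD 0.0259) in silenced cells. As in any bulk RNA, more RNA per cell cannot be told apart from more cells with FGF2 RNA.

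**Figure D2:**
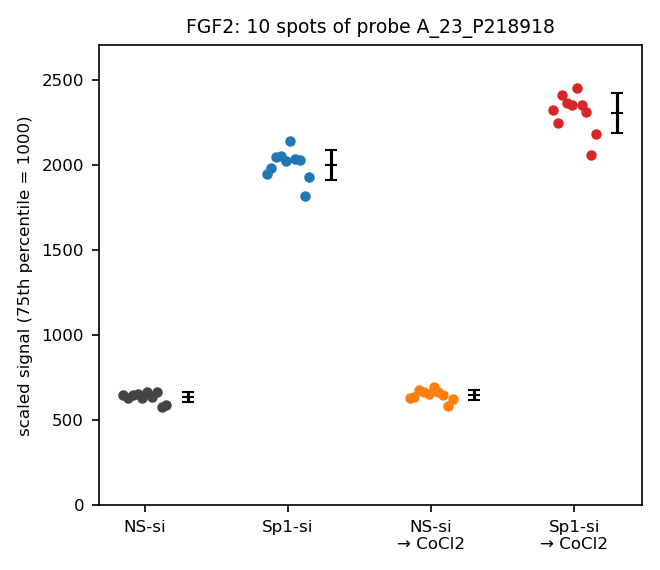
Scaled signal (linear axis from 0, 75th percentile of each array set to 1000) of the 10 spots of the FGF2 probe on each array, with the mean and SD of these signals on that array beside them. The highest spot of the NS-si arrays is 694 and the lowest spot of the Sp1-si arrays is 1816.

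FGF9, a ligand with a preference for FGFR2 and FGFR3 isoforms that is made by several epithelia, was dimmer and had the widest range of the 10 probes measured on all arrays, 6.37-fold, although with the normexp background correction FGF2 and both FGF18 probes spanned more. Its scaled signal was 37.9 without and 26.6 with CoCl2 in control cells and 169.5 without and 57.1 with CoCl2 in silenced cells, each 1 spot well above background. The Sp1-si array was the highest and NS-si → CoCl2 the lowest, and each neighbour in that order differed by more than 2 SD between spots. Silenced cells were 4.48-fold above control cells without CoCl2 (log2 2.16, SD 0.098) and 2.15-fold with it (log2 1.101, SD 0.111). CoCl2 went with a level 2.97-fold lower in silenced cells (log2 -1.57, SD 0.0945) and 1.42-fold lower in control cells (log2 -0.51, SD 0.105). The difference of these log2 ratios was -1.06 (SD 0.154), which is a call, and it fell short of that size with quantile normalization, with median scaling and without scaling (-0.61). For this dim probe the background correction changed the values, and with the normexp method the ratio of silenced to control cells was 1.265 without and 0.245 with CoCl2, and the CoCl2 ratio was -1.04 in silenced and -0.02 in control cells.

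FGF18, a ligand related to FGF8 that binds FGFR3 among others and acts in bone and lung development, was measured by a pair of probes. The first (A_23_P93027) had scaled signals of 20282 without and 11335 with CoCl2 in control cells and 31705 without and 13871 with CoCl2 in silenced cells. The second (A_23_P412389) had 1623 and 1056 in control and 2412 and 801 in silenced cells, in the same order. On both probes Sp1-si was the highest array and each of the CoCl2 arrays was below each array without CoCl2. CoCl2 ratios in silenced cells were -1.19 (SD 0.0262) and -1.59 (SD 0.0318), that is 2.29-fold and 3.01-fold lower, and in control cells -0.84 (SD 0.0282) and -0.62 (SD 0.034). Without scaling the first probe was at -0.97 in silenced and at -1.065 in control cells. The probes did not have the same sign for Sp1-si → CoCl2 against NS-si → CoCl2, with 0.29 (SD 0.0226) and -0.40 (SD 0.0329), or 0.69 and -0.002 without scaling, whereas without CoCl2 they gave 0.645 (SD 0.0244) and 0.57 (SD 0.0299).

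FGF8, a developmental ligand that also acts as an autocrine factor in hormone-dependent tumours, was among the genes that the study picked from these arrays. Its processed intensity was 5.05 without and 25.8 with CoCl2 in control cells and 5.11 without and 7.81 with CoCl2 in silenced cells, and it was well above background with CoCl2 in control cells alone. The same single spot thus gave both of its calls, at least 4.08-fold higher than without CoCl2 and at least 3.32-fold higher than with CoCl2 in silenced cells. These bounds set the dim array at the lowest intensity of any probe well above background there, which was 7.39 on the NS-si and 10.2 on the Sp1-si → CoCl2 array. With normexp neither call remained. One FGF1 probe was also well above background on the NS-si → CoCl2 array only. Its intensities were 7.74 without and 8.99 with CoCl2 in control cells and 4.51 and 3.91 in silenced cells, with bounds of at least 1.36-fold and 1.16-fold. Unlike FGF8, it was nearly level in control cells, with a measured log2 CoCl2 ratio of 0.44 (SD 0.349). FGF1, the acidic FGF, which binds all FGF receptors, was otherwise between 2.69 and 5.69 on its other probes. FGF19, the gut hormone that signals through FGFR4 and beta-Klotho to limit bile acid synthesis, lay between 1.62 and 4.25 on both probes, so its level was not detectable on these arrays.

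FGFR1, the receptor for FGF2 and many other ligands, was higher on the other 3 arrays than in control cells without CoCl2. Its scaled signal was 6675 without and 11648 with CoCl2 in control cells and 11509 without and 13793 with CoCl2 in silenced cells. Levels on the Sp1-si and NS-si → CoCl2 arrays lay within 2 SD between spots of each other. The CoCl2 ratio was 0.80 (SD 0.0284, 1.75-fold) in control and 0.26 (SD 0.0263) in silenced cells, and the ratio of silenced to control cells was 0.79 (SD 0.0256, 1.72-fold) without and 0.24 (SD 0.024) with CoCl2. No ratio of FGFR1 reached the size of a call. The difference of its CoCl2 ratios, -0.54 (SD 0.0362), shrank to -0.09 without scaling.

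FGFR2, which is expressed by epithelia in an isoform for stromal FGF7 and FGF10, varied least. The brighter probe (A_23_P202334) had scaled signals of 1179.9 without and 1008 with CoCl2 in control cells and 1112 without and 981 with CoCl2 in silenced cells, and the dimmer one 68.3 and 79.7 in control and 65.4 and 73.8 in silenced cells. The largest ratio on either probe was -0.23 (SD 0.0372), for CoCl2 in control cells on the brighter one, where the dimmer one gave 0.22 (SD 0.0939), and without scaling the former was -0.45 and the latter -0.004. On the dimmer probe no neighbouring levels were more than 2 SD apart. The remaining probe, designed on another transcript accession, had intensities of 4.0 to 7.73 and was well above background on none of the arrays.

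FGFR3, a receptor for FGF9 and FGF18 among others, was lowest in silenced cells without CoCl2 on both of its probes. Scaled signals were 2517 without and 2923 with CoCl2 in control cells and 1252 without and 2467 with CoCl2 in silenced cells on the brighter probe (A_23_P500501). They were 51.9 and 96.6 in control and 33.7 and 88.0 in silenced cells on the dimmer one (A_23_P212830). With CoCl2 the 2 kinds of cells were close, with ratios of -0.245 (SD 0.0329) and -0.135 (SD 0.106), which without scaling turned to 0.15 and 0.26. Without CoCl2, silenced cells were 2.01-fold below control cells on the brighter probe (log2 -1.01, SD 0.0299) and 1.54-fold on the dimmer one (log2 -0.62, SD 0.0955). The first value sits at the size of a call and lay between -1.06 and -0.945 under the alternatives, of which 4 put it below that size. In silenced cells the CoCl2 ratio was 0.98 (SD 0.0312) and 1.38 (SD 0.0913), against 0.22 (SD 0.031) and 0.90 (SD 0.1) in control cells. The difference of these ratios was 0.76 (SD 0.0437) on the brighter probe, or 1.21 without scaling, and 0.49 (SD 0.144) on the dimmer one. The 0.22 turned to -0.01 without scaling, and the 1.38 shrank to 0.695 with normexp.

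FGFR4, the partner of beta-Klotho in FGF19 signalling, had scaled signals of 596 without and 652 with CoCl2 in control cells and 457 without and 565 with CoCl2 in silenced cells. Like FGFR3 it was lowest in silenced cells without CoCl2, 1.3-fold below control cells (log2 -0.38, SD 0.037). Its CoCl2 ratio was 0.31 (SD 0.0374) in silenced and 0.13 (SD 0.0412) in control cells, the latter turning to -0.10 without scaling. With CoCl2 the ratio of silenced to control cells was -0.205 (SD 0.0394), or 0.19 without scaling.

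**Figure D3:**
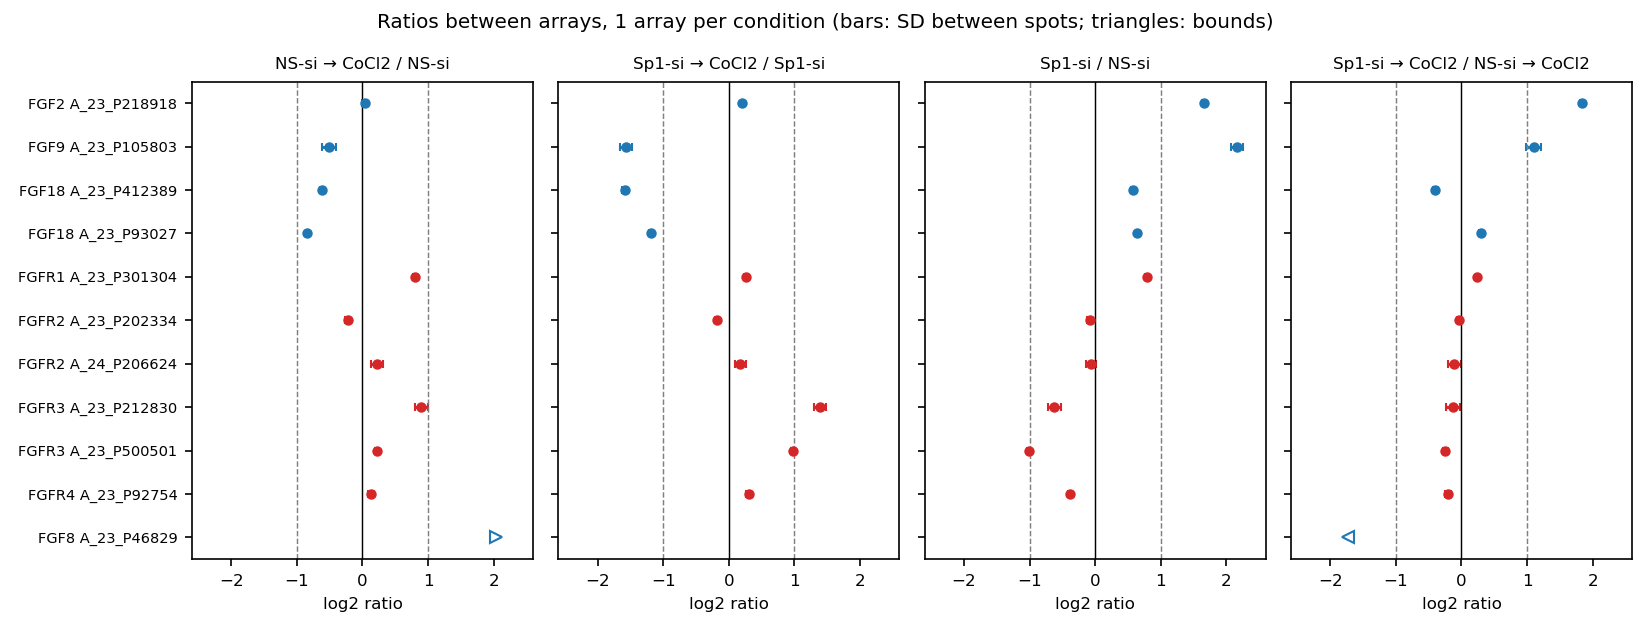
Log2 ratios between 2 arrays for the 10 member probes well above background on all 4 arrays and for FGF8, in 4 comparisons; ligands are blue and receptors red, bars are SDs between spots, triangles are bounds and dashed lines mark a log2 ratio of 1 in size. FGF2 and FGF9 lie right of the dashed line in both comparisons of Sp1-si with NS-si, and FGF9 and both FGF18 probes lie left of it for CoCl2 in Sp1-si cells.

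In control cells, CoCl2 gave a call at 1 of 12 member probes (FGF8, higher), against 8.88% of all 32870 probes, 4.53% higher and 4.34% lower. FGF8 entered this count through the one array on which it was high. In silenced cells, 4 of 10 member probes were called, FGFR3 higher and FGF9 and both probes of FGF18 lower, against 9.89% of all probes, 3.72% higher and 6.17% lower. The 4 calls stand for 3 genes. The median log2 ratio of the 10 member probes was 0.08 in control and 0.19 in silenced cells, beside 0.02 and -0.015 for all probes measured.

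Silencing of Sp1 without CoCl2 gave 3 calls among 10 member probes, with FGF2 and FGF9 higher and FGFR3 lower, against 11.4% of all probes, 5.5% higher and 5.88% lower. With CoCl2 it gave 3 among 12, with FGF2 and FGF9 higher and FGF8 lower, against 15.9% of all probes, 6.31% higher and 9.64% lower. FGF2 and FGF9 were thus higher in silenced cells in both comparisons, which use different arrays. Member medians were 0.25 without and -0.075 with CoCl2, beside -0.02 and -0.06 for all probes. The difference of the CoCl2 ratios, Sp1-si minus NS-si, was called at 1 of 10 member probes (FGF9, lower), against 5.91% of all probes, 1.05% higher and 4.87% lower. No member was called with quantile normalization or median scaling, and without scaling the 1 call was FGFR3 (A_23_P500501), higher. The CoCl2 ratios and the Sp1 ratios share arrays, so a high or low value on the Sp1-si array alone enters both.

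**Figure D4:**
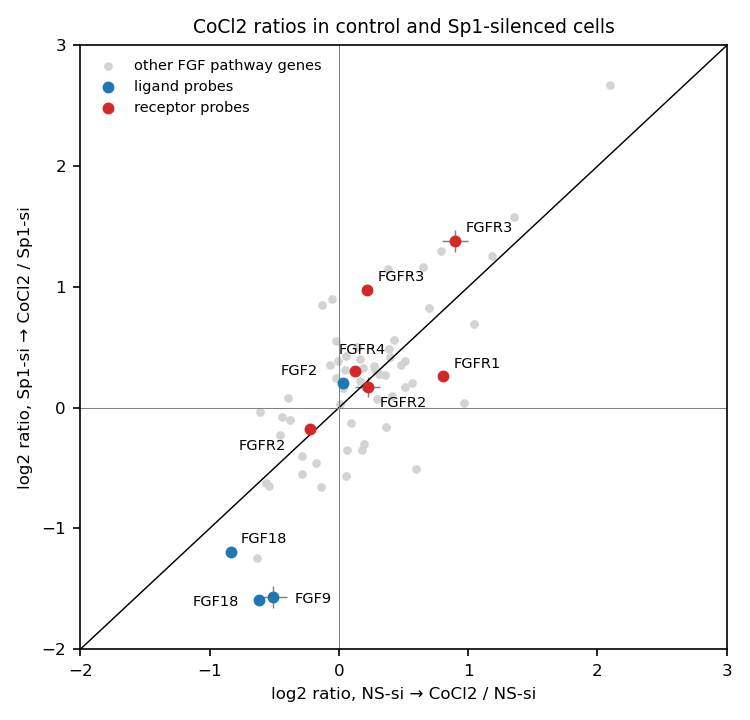
Log2 ratio of CoCl2-treated to untreated cells for member probes well above background on all 4 arrays and for other FGF pathway genes (grey, the brightest probe of each), with NS-si cells on the x axis, Sp1-si cells on the y axis, SDs between spots as thin bars and equal ratios on the diagonal. FGF9 (-0.51 and -1.57) and both FGF18 probes lie below 0 on both axes, FGFR3 lies above the diagonal on both probes, and FGFR1 (0.80 and 0.26) lies below it.

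Genes around the ligands and receptors were described by 5 lists of 71 genes, each gene by its brightest probe. Of 12 other FGF ligands, 3 (FGF3, FGF4 and FGF7) were well above background on all 4 arrays. At most 5 were tested in a comparison of 2 arrays, and none reached the size of a call. Of all genes, 3.54% to 8.03% were called in a given direction in these comparisons, so too few ligands were tested to set against that share. FGF7, the keratinocyte growth factor, had scaled signals of 242 without and 199 with CoCl2 in control cells and 167 without and 114 with CoCl2 in silenced cells, with a ratio of silenced to control cells of -0.54 (SD 0.0629) without and -0.81 (SD 0.0597) with CoCl2. These values are from 1 of its 4 probes. The others had scaled signals of 1.22 to 8.64 and were well above background on at most 2 arrays. FGF4, an embryonic ligand, had signals of at most 20.5 and a ratio of -0.87 (SD 0.213) without CoCl2. Of the 4 FGF homologous factors, which stay inside cells and do not activate receptors, FGF12 and FGF13 were measured. Neither was called, and they too are too few to set against the share of all genes. Their ratios of silenced to control cells without CoCl2 were -0.51 (SD 0.265) and -0.29 (SD 0.0563).

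Co-receptors and binding proteins were the list with most calls after silencing of Sp1. Without CoCl2, 2 of 15 genes tested were higher and 4 lower in silenced cells, against 6.2% and 6.19% of all genes, and with CoCl2 1 was higher and 8 lower, against 7.19% and 8.03%. Without scaling, which moves the ratio of silenced to control cells with CoCl2 up by 0.40, the calls with CoCl2 in the 5 lists together went from 5 higher and 8 lower to 9 higher and 4 lower. On the brightest probes, those of SDC4, SULF2, HS6ST2 and HS2ST1 were lost. The list median was -0.175 without and -0.74 with CoCl2, beside -0.013 and -0.015 for all genes. KLB (beta-Klotho, the co-receptor for FGF19) had scaled signals of 237 without and 303 with CoCl2 in control cells and 42.5 without and 51.2 with CoCl2 in silenced cells. It was 5.58-fold lower after silencing without CoCl2 (log2 -2.48, SD 0.0672) and 5.91-fold with it (log2 -2.56, SD 0.0753), and its 3 probes lay between -3.03 and -2.05. The syndecans SDC1, SDC3 and SDC4, cell surface proteins that carry heparan sulphate, were lower in both comparisons as well.

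SDC4 had signals of 12677 without and 16525 with CoCl2 in control cells and 3016 without and 6695 with CoCl2 in silenced cells, that is ratios of silenced to control cells of -2.07 (SD 0.0262) and -1.30 (SD 0.0243). The dimmer SDC4 probe gave -2.24 without and -2.30 with CoCl2. SDC1 gave -1.62 (SD 0.0256) and -1.49 (SD 0.0243), and SDC3 -1.43 (SD 0.0623) and -1.555 (SD 0.0597). SDC2 of the same family gave 0.15 and -0.07. GPC3, a glypican with the same kind of sugar chain, was higher in silenced cells, with signals of 54.1 and 65.2 in control and 264 and 335 in silenced cells and ratios of 2.29 (SD 0.0672) and 2.36 (SD 0.0689). SULF2, which trims heparan sulphate outside the cell, and HS6ST2, which sulphates it, were at -1.11 (SD 0.0324) and -1.16 (SD 0.0777) with CoCl2, and neither passed -1 there without scaling.

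For a pair of the 8 genes counted as lower with CoCl2, another probe above background fell short of a call or went the other way. HS2ST1, another sulphotransferase, was at -1.15 on its brightest probe and between -0.61 and -0.26 on its 3 other probes. FGFBP2 was at most at -1.73 on one probe and at least at 3.4 on the other, so no direction is given for it. FGFRL1, a receptor that lacks the kinase domain, was higher in control cells with CoCl2 (1.04, SD 0.0372) and with Sp1-si (1.15, SD 0.0307), with 0.59 and 0.27 on its dimmer probe; it is named here after its values were seen.

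All 20 genes of the list of adaptors and ERK cascade components were measured, and none was called lower in any comparison. After silencing of Sp1, 2 were called higher both without and with CoCl2, against 6.2% and 7.19% of all genes higher. MAPK3 (ERK1) had signals of 104 without and 103 with CoCl2 in control cells and 356 without and 523 with CoCl2 in silenced cells, with ratios of 1.77 (SD 0.0627) and 2.35 (SD 0.0484). PLCG1, the phospholipase that binds activated FGF receptors, had ratios of 1.104 (SD 0.0326) and 1.475 (SD 0.0399). With CoCl2, MAP2K1, a kinase of the ERK cascade, was 2.27-fold higher in control (log2 1.18, SD 0.031) and 2.39-fold in silenced cells (log2 1.255, SD 0.0312). The exchange factor SOS1 gave 0.79 and 1.30 at signals of only 11.6 to 28.4. With CoCl2, 1 of the 20 was higher in control and 2 in silenced cells. Of all genes, 4.21% were higher and 3.54% lower in control cells, and 3.69% and 3.92% in silenced cells.

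Of 17 measured genes of ERK feedback and output, 2 were higher with CoCl2 in control cells and 3 in silenced cells, and none was lower on its brightest probe. The shares of all genes were 4.21% higher and 3.54% lower in control cells, and 3.69% and 3.92% in silenced cells. In silenced cells the dimmer probe of ETV5 was at -1.63 and 1 of the 3 probes of CCND1 at -1.43, where the brightest probes gave 0.08 and 0.33. DUSP5, a nuclear ERK phosphatase, had signals of 1179.9 without and 5038 with CoCl2 in control cells and 747 without and 4769.9 with CoCl2 in silenced cells, so its CoCl2 ratios were 2.09 (SD 0.031) and 2.67 (SD 0.0312). FOSL1, an AP-1 subunit induced by ERK, gave 1.35 (SD 0.0416) and 1.58 (SD 0.0382). DUSP6, a phosphatase often used as a readout of FGF receptor activity, gave 0.36 and -0.16, and no Sprouty gene (SPRY1 to SPRY4) reached the size of a call, while 10 of the 17 ratios were above 0 in control cells and 10 in silenced cells. SPRED2 was at 0.65 and 1.16 on its brighter probe, while its dimmer probe was at -0.82 in control cells and not measured in silenced cells.

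After silencing of Sp1, 2 genes of the same list were called on their brightest probe, both higher without and with CoCl2, against 6.2% of all genes higher and 6.19% lower without and 7.19% and 8.03% with CoCl2. ETV1, an ETS factor downstream of FGF receptors, had signals of 32.2 without and 26.5 with CoCl2 in control cells and 162 without and 123 with CoCl2 in silenced cells, with ratios of 2.33 (SD 0.0895) and 2.21 (SD 0.105). IL17RD (SEF), a membrane inhibitor of FGF signalling, gave 2.18 (SD 0.0325) and 1.55 (SD 0.048), and 1.275 and 0.88 on its dimmer probe. The related ETV4 stayed below the size of a call, at 0.41 without and 0.535 with CoCl2. The probes of ETV5 differed, with -0.04 and 0.44 on the brightest and -0.22 and -1.39 on the dimmer one, and the dimmer probe of SPRED2 was at most at -2.14 without CoCl2, where the brightest gave -0.66. PHLDA1, looked at after its values were seen, was at 0.86 without CoCl2 on its brightest probe and at 0.52, 1.30 and 1.48 on its others. With CoCl2 its probes lay between -0.20 and 0.38. The list median was 0.04 in both comparisons. The difference of the CoCl2 ratios was called for 1 gene of the 5 lists, HS2ST1 on its brightest probe (-1.105), against 0.994% of all genes higher and 2.86% lower, and the other 3 probes of that gene had -0.155 to 0.26.

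**Figure D5:**
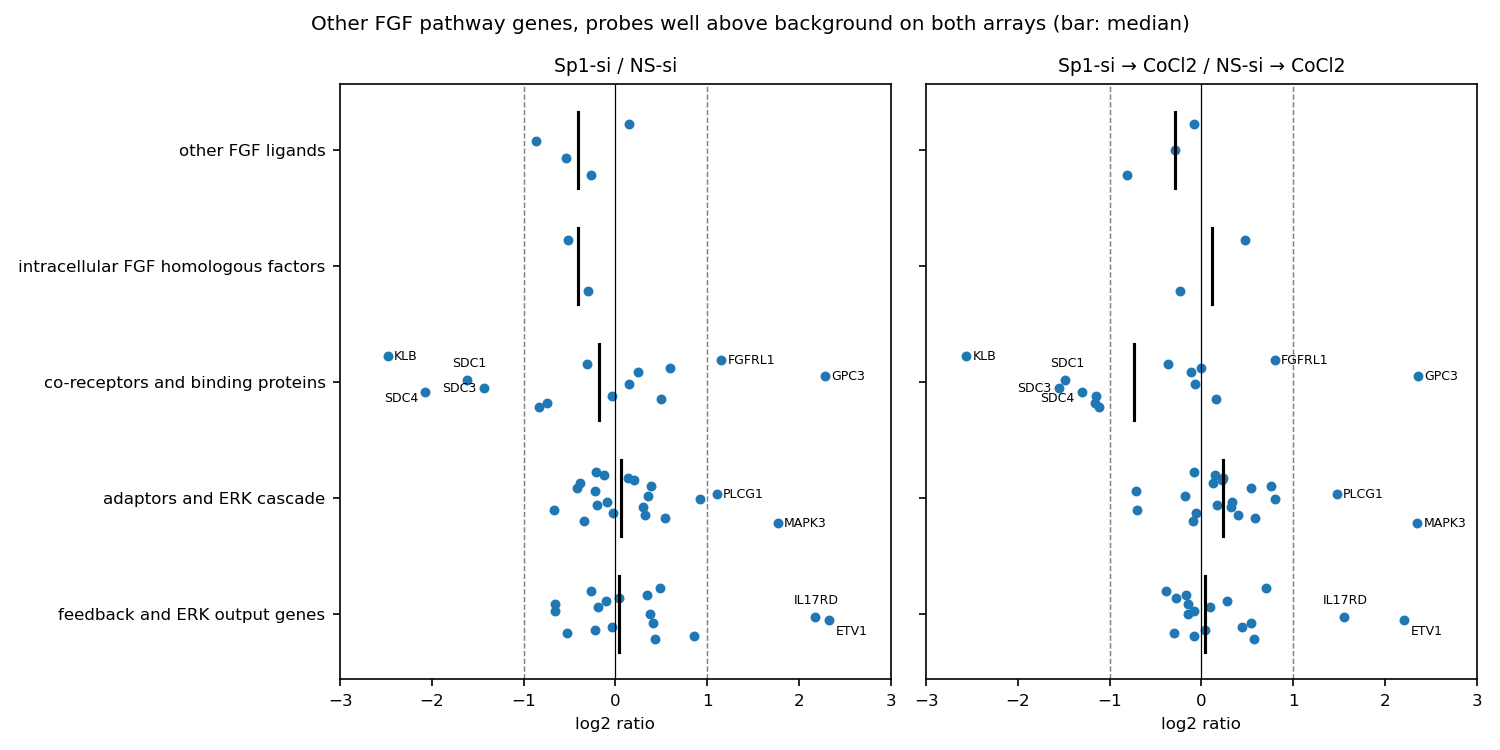
Log2 ratio of Sp1-si to NS-si for the genes of the 5 pathway lists (brightest probe, well above background on both arrays), without CoCl2 on the left and with CoCl2 on the right; black bars are list medians and dashed lines mark a log2 ratio of 1 in size. Among co-receptors, KLB and 3 syndecans lie left of -1 and GPC3 right of 2 in both panels, while most adaptor and feedback genes lie between the dashed lines.

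FGF9, whose probe had the widest range of the 10 measured on all arrays under the main scaling, was set against 20926 named probes that passed the background limit on every array. The 5 genes with the most similar centred log2 levels over the 4 arrays were BASP1-AS1, TMEM170B, OSGIN2, AK9 and TNRC6C, at distances of 0.34 to 0.40 on the log2 scale. With 4 arrays such a likeness describes these values only.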

How the data were processed

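The authors deposited the processed intensity of each spot as Agilent Feature Extraction 10.5.1.1 wrote it, after background subtraction and detrending per the file headers, with the array annotated on hg18. The yes or no calls deposited with it (outlier, saturated, well above background) were read as scores of 0 or 1. The deposited value table held the same signals multiplied by 1 constant per array (1.25 to 1.58, column medians 197 to 220) on a linear scale with no centring, and served as an alternative. No normalization is named in the sources used here.

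Outlier spots were left out, log2 intensities minus the array's 75th percentile were averaged over a probe's spots, and a probe was well above background with at least 50% of its spots so flagged. Ratios are differences of these log2 values between 2 arrays, given as a bound where 1 side was not well above background. Symbols came through RefSeq accessions, which matched 28463 of 29877 spots with one. The members and lists were chosen with earlier results of these data known. Named were all member probes, SP1, up to 6 called genes per list (otherwise the 2 with the largest ratios) and the 5 genes nearest to FGF9 in pattern; SDC2, SULF2, HS2ST1, HS6ST2, FGFRL1, FGF3, DUSP6, SPRY1 to SPRY4, ETV4, ETV5 and CCND1 were chosen after their values were seen. Alternatives were other scalings, filters, call sizes and the normexp background correction of limma 3.58.1 (R 4.3.3). Python 3.11.15, numpy 2.4.6 and pandas 2.3.3 were used.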

Additional observations from a re-analysis of the deposited data

How the results depend on the processing

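With 1 array per condition, no result has a replicate check, and spots on one array leave out the spread between cultures. No paired analysis was possible because no condition has a second array. Of 50 member ratios, 36 kept their sign under the 7 alternative scalings, value tables and background corrections, and 14, none of them a call, did not. Of 10 that were at least 1 in size, 5 stayed so under all. These were the ratios of FGF2 (both) and FGF9 (without CoCl2) for Sp1-si against NS-si, and of FGF9 and FGF18 (A_23_P412389) for CoCl2 in Sp1-si cells. The planned normexp correction on mean signals was not run, because the files hold median signals, and its version on median signals was chosen after seeing the data.

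Member probes called for CoCl2 in NS-si cells went from 1 to 0 with probes well above background on both arrays only, to 5 with calls at 1.5-fold, to 2 without scaling and to 0 with normexp. Those for Sp1-si against NS-si went without CoCl2 from 3 to 6 with calls at 1.5-fold, and with CoCl2 from 3 to 5 with no filter on dim probes and to 1 with normexp. Those for the difference of the CoCl2 ratios went from 1 to 4 with no filter, 3 at 1.5-fold, and 0 with quantile normalization or median scaling, and without scaling the single call passed from FGF9 (lower) to FGFR3 (higher). Calls in the pathway lists went from 5 to 3 for CoCl2 in NS-si cells, both without scaling and with normexp, and from 7 to 4 for CoCl2 in Sp1-si cells with normexp. For the difference they went from 1 (lower) to 3 (2 higher and 1 lower with quantile or median scaling; also 3 with the mean over a gene's probes), 6 (no scaling, all higher) and 2 (1 higher and 1 lower, 75th percentile over measured probes, or the authors' values). The ratio of SP1 with CoCl2 went from -3.87 to -3.75 (quantile), -3.76 (median scaling), -3.47 (no scaling) and -2.64 (normexp), and without CoCl2 from -3.77 to -2.50 (normexp).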

Other observations

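PHLDA1, a gene induced by ERK that was looked at after its values were seen, had a higher CoCl2 ratio in control (NS-si) than in silenced (Sp1-si) cells on each of its 4 probes. On its brightest probe the scaled signal was 6974 without and 13667 with CoCl2 in control cells and 12631 without and 12943 with CoCl2 in silenced cells, so the NS-si array was the lowest and the other 3 lay close together. The 4 CoCl2 ratios ran from 0.97 to 2.11 in control and from 0.035 to 0.97 in silenced cells, with differences of -1.14 to -0.72. Leaving the arrays unscaled moved the median difference of all probes up by 0.45, so the size of these differences depends on the scaling. Like PHLDA1, FGFR1 was lowest on the NS-si array.

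FGFBP3, a carrier protein for FGFs that was also looked at after its values were seen, was lower with CoCl2 on both probes in both kinds of cells. Its CoCl2 ratios were -0.635 in control and -1.24 in silenced cells on the brighter probe and -2.07 and -2.26 on the dimmer one. FGFBP1, its relative, had -0.56 (SD 0.0282) and -0.62 (SD 0.0262).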
